A study of Mus musculus with 6 samples.

Results

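Sebocyte genes were examined in RNA-seq libraries of mouse ear skin: 10 genes of wax ester, triglyceride and sterol ester synthesis, lipid droplets and sebocyte identity, chosen by gene name among 54532 genes. They were the acyltransferase genes Awat1, Awat2, Dgat2l6 and Dgat2, the fatty acyl-CoA reductase gene Far2, the sterol acyltransferase gene Soat1, and Mgst1, Cidea, Acsbg1 and Mc5r. All 10 passed the filter on low counts, with 102 counts or more in every library. The Ufl1 cKO group held 3 libraries from 3-month-old mice of genotype Ufl1f/f KRT14Cre/+, in which Cre is driven by the keratin 14 promoter and so acts in basal keratinocytes and the epithelial cells that descend from them, not in the other cells of the ear. The control group held 3 libraries from 3-month-old mice labelled Ufl1f/+ or Ufl1f/f, with no Cre in the label, so an effect of Cre and an effect of the loss of Ufl1 cannot be told apart. Ufl1 encodes the E3 ligase of ufmylation, in which UFM1, a ubiquitin-like modifier, is joined to other proteins. Whether each library is a different mouse is not said in the labels, so the tests speak for the spread among these 6 libraries, which may be technical.

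Sebocytes are epithelial cells of the sebaceous gland that descend from keratin 14-positive progenitors, fill with lipid droplets and burst to release sebum. Mouse sebum is rich in wax esters, made from fatty alcohols and acyl-CoA, together with triglycerides and sterol esters. Fatty acyl-CoA reductases supply the alcohol, and acyltransferases of the DGAT2 family join it to a fatty acid.

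Total counts ranged from 17256339 to 20776539. Ufl1 itself was at 34.9, 35.6 and 38.8 CPM (counts per 1e6, TMM-scaled) in cKO 1 to 3, against 57.9, 47.0 and 46.1 CPM in controls 1 to 3. The cKO libraries were all below the controls, as in 4.81% of all genes. The log2 fold change of Ufl1 was -0.47, with an adjusted p of 0.778 in edgeR's quasi-likelihood test. Y-linked transcripts were present in every library and Xist had at most 9 counts in any of them. Control 2 and control 1 lay at opposite ends of the first principal component, which held 36.9% of the variance. Control 1 also had the highest mitochondrial share of counts, 4.59%, where the remaining libraries had 2.28% to 2.97%.

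None of the 10 sebocyte genes was called different between Ufl1 cKO and control ears. Soat1 was at 1.01 times and Mgst1 at 0.997 times the control level. Awat1, Awat2, Dgat2l6 and Far2 were at 0.841 to 0.884 of the control level, Cidea at 0.682 and Acsbg1 at 0.631, while Dgat2 was at 1.11 times and Mc5r at 1.40 times the control level. In edgeR's quasi-likelihood test, two-sided and adjusted over 17318 genes, 0 of 10 passed an adjusted p of 0.05, where 0.0173% of all genes did (0.0115% higher and 0.00577% lower in cKO ears). DESeq2 also called 0 of 10, where it called 0.525% of all genes. At an unadjusted p under 0.05 in edgeR, 1 member had a higher value in cKO ears (Mc5r; 3.38% of all genes) and 1 a lower one (Acsbg1; 1.95% of all genes), and 5.33% of all genes passed in either direction. The median log2 fold change was -0.20 over the members and -0.01 over all genes, with 7 members negative (52.2% of all genes) and 3 positive. Without control 2 the median of the members was 0.02. Whole skin was sequenced, so fewer sebocytes and less RNA per sebocyte cannot be told apart.

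**Figure D1:**
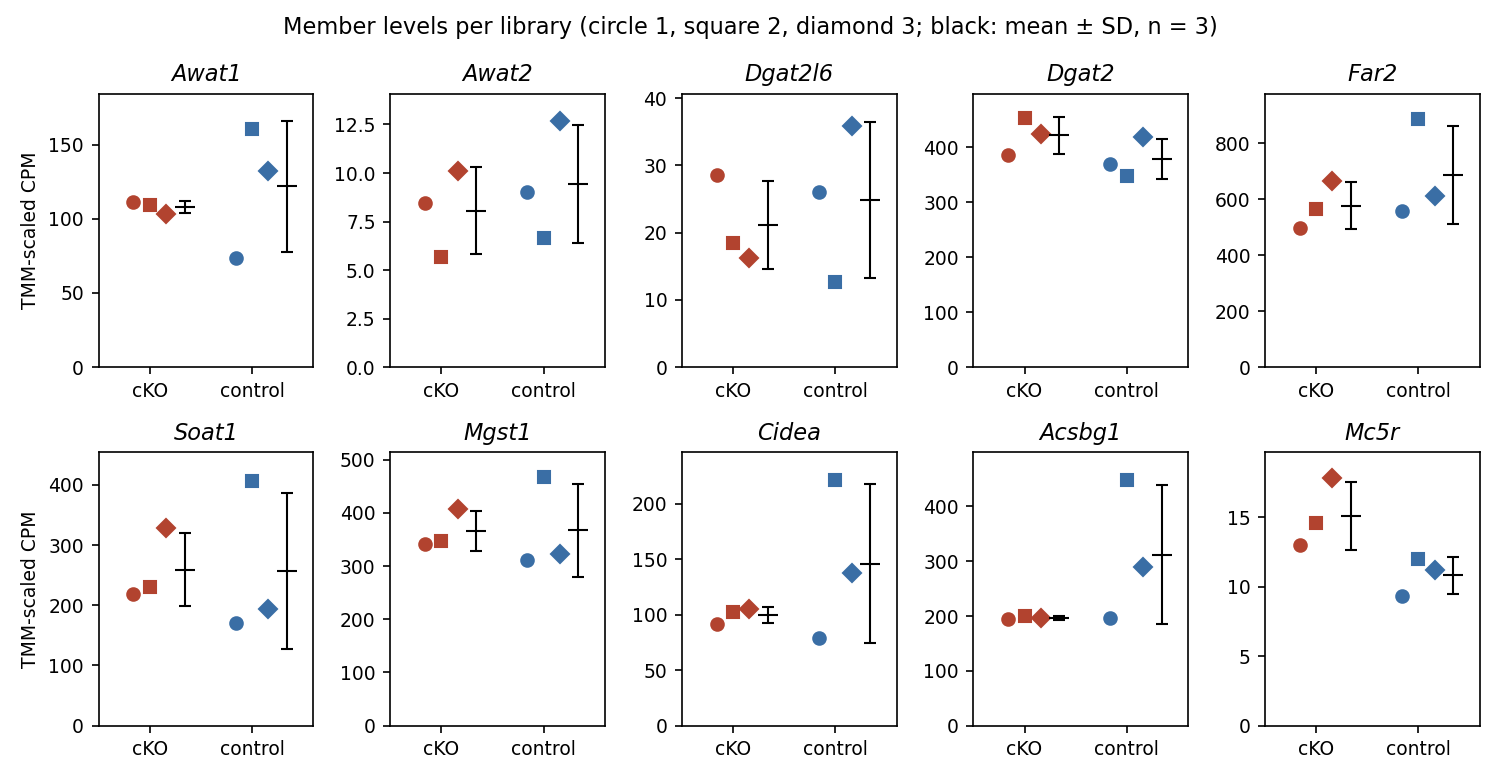
TMM-scaled CPM (vertical axis, from 0) of each member in 3 cKO (left, red) and 3 control (right, blue) libraries, with circles, squares and diamonds for replicates 1 to 3 and black bars for the mean ± SD. Mc5r is the member whose groups do not overlap, and control 2 holds the highest value of 6 members.

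Far2 makes fatty alcohols by reducing acyl-CoA and so supplies the alcohol of a wax ester. Far2 (ENSMUSG00000030303, chromosome 6, 148047259 to 148182758, mm10) measured 497, 567 and 666 CPM in cKO libraries 1 to 3, against 559, 886 and 613 CPM in controls 1 to 3. The groups overlapped, with control 2 the highest library and cKO 1 the lowest. In cKO over control ears the log2 fold change was -0.25 (SE 0.22, 95% interval -0.76 to 0.27; edgeR adjusted p = 0.997). The gene overlaps Ergic2 on the other strand. Of the 50-base words of its transcripts, 10.8% also occur, read on either strand, in transcripts of other genes. Any words shared through the overlap were not counted apart. Ergic2 had 807 counts or fewer per library, while Far2 had at least 8926.

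Awat1 and Awat2 encode wax alcohol acyltransferases, which carry out the last step of wax ester synthesis. Awat1 (ENSMUSG00000015665) measured 111, 109 and 103 CPM in cKO libraries 1 to 3, against 73.7, 160.2 and 132 CPM in controls 1 to 3. The cKO libraries lay close together and inside the range of the controls. Its log2 fold change was -0.18 (SE 0.25, 95% interval -0.76 to 0.41; edgeR adjusted p = 0.997), and it was 0.07 without control 2 and -0.44 without control 1. Awat2 (ENSMUSG00000031220) measured 8.47, 5.66 and 10.1 CPM in cKO libraries 1 to 3, against 9.01, 6.65 and 12.7 CPM in controls 1 to 3. The groups overlapped, and the log2 fold change was -0.23 (SE 0.31, 95% interval -0.94 to 0.48; edgeR adjusted p = 0.997) with all libraries and 0.04 without control 3.

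Dgat2l6 belongs to the same acyltransferase family as Dgat2. Dgat2l6 (ENSMUSG00000067597) measured 28.6, 18.5 and 16.3 CPM in cKO libraries 1 to 3, against 26.0, 12.7 and 35.9 CPM in controls 1 to 3. Control libraries were both the highest and the lowest of the 6. Its log2 fold change was -0.23 (SE 0.37, 95% interval -1.09 to 0.62; edgeR adjusted p = 0.997), 0.13 without control 3 and -0.55 without control 2.

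Awat2, Dgat2l6 and Awat1 are neighbours on the X chromosome. In the deposited coordinates (mm10) Awat2 spans 100402221 to 100442717 on the minus strand, Dgat2l6 spans 100524838 to 100546144 and Awat1 spans 100572251 to 100578205, both on the plus strand. A gap of 82120 bp, which holds Igbp1, separates Awat2 from Dgat2l6, and one of 26106 bp separates Dgat2l6 from Awat1. The libraries did not follow the same order in the 3 genes. Control 2 held the highest Awat1 level but the lowest Dgat2l6 level, and its Awat2 level was the second lowest. The ratio of Dgat2l6 to Awat1 CPM was 0.258, 0.170 and 0.158 in cKO 1 to 3 and 0.353, 0.0795 and 0.272 in controls 1 to 3. The ratio of Awat2 to Awat1 CPM was 0.0765, 0.0518 and 0.0973 in cKO 1 to 3 and 0.122, 0.0415 and 0.0960 in controls 1 to 3. Both ratios overlapped between the groups, and in both the highest and the lowest library were controls. None of the 50-base words in the transcripts of Awat1, Awat2 or Dgat2 occurred, on either strand, in transcripts of another gene, and 0.435% of those of Dgat2l6 did.

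The promoter windows of these 3 neighbours are shown because their transcripts differed in level and in the order of libraries, and that of Acsbg1 because it had the most negative fold change of the members. The windows are RefSeq sequences of build GRCm38.p6, 300 bases each, from 250 bases before to 50 after the annotated start, at chrX:100571997-100572296 (Awat1, plus strand), chrX:100524588-100524887 (Dgat2l6, plus strand), chrX:100442668-100442967 (Awat2, minus strand) and chr9:54661836-54662135 (Acsbg1, minus strand). Capitals mark CCAAT or its reverse complement.
Awat1: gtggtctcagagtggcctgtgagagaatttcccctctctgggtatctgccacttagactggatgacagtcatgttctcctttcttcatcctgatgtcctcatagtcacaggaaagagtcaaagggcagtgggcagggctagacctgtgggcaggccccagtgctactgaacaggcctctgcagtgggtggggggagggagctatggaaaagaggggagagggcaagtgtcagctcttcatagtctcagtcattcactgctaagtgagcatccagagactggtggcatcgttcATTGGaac
Dgat2l6: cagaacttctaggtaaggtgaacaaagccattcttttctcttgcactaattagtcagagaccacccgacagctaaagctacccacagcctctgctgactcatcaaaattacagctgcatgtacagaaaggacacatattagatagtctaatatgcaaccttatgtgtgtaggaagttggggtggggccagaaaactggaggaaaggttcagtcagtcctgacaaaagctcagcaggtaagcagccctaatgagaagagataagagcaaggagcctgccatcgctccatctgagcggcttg
Awat2: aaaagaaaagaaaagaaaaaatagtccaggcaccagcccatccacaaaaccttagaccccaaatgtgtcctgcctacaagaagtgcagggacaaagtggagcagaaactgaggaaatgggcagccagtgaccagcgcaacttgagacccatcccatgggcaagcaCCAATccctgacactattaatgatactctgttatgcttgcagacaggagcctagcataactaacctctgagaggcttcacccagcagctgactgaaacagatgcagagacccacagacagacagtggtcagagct
Acsbg1: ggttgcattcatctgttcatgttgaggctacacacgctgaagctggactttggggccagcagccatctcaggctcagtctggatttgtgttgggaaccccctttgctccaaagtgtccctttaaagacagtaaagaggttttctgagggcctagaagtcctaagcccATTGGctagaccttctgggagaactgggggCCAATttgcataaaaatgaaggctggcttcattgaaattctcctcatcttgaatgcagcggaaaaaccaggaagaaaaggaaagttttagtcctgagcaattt

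Windows of 7 members, 9 in all, were searched on both strands. Dgat2, Cidea and Mc5r were not searched. CCAAT was in 5 of the 9 windows and in 37.4% of all 32851 windows of that length. Among the windows shown, Acsbg1 held it at -83 and -53 from the start, Awat2 at -85 and Awat1 at 42, and Dgat2l6 had no match. Awat2 has another annotated start, 30130 bp from its start in the deposited coordinates. The window there, not shown, held CCAAT at -121, and that of Soat1, also not shown, at -30. TATAAA was in 0 of 9 windows (13.6% of all), AGGTCA, the core that PPAR-gamma binds, in 0 of 9 (16.3% of all), and the DR1 repeat of that core in 0 of 9 (0.0396% of all). AGAACA, the core of androgen receptor sites, was in 2 of 9 windows (19% of all), those of Awat1 and Mgst1. A match describes letters in the window and no binding was measured.

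Dgat2 encodes the acyltransferase of the last step of triglyceride synthesis, also in adipocytes and other cells. Dgat2 (ENSMUSG00000030747, chromosome 7, 99153658 to 99182719) measured 385, 452 and 424 CPM in cKO libraries 1 to 3, against 369.9, 348 and 419 CPM in controls 1 to 3. The groups overlapped through control 3, which lay above cKO 1. Over all 6 libraries the log2 fold change was 0.15 (SE 0.15, 95% interval -0.20 to 0.50; edgeR adjusted p = 0.997), positive with any 1 library left out (0.09 to 0.23). Of the members it had the narrowest interval. Of the adipocyte markers 10 of 10 tested had a negative log2 fold change, where 52.2% of all genes did, with a median of -0.48. Of these markers edgeR called 0 (0.0173% of all genes) and DESeq2 called 0 (0.525% of all genes). At an unadjusted p under 0.05 in edgeR, 2 were lower (1.95% of all genes). Their summed level was 934 to 1284 CPM in cKO ears and 919 to 2103 CPM in controls. Their mean log2 CPM, centred over the 6 libraries, was -0.15, -0.03 and -0.44 in cKO 1 to 3. In controls 1 to 3 it was 0.65, -0.50 and 0.48, so control 2 lay below every cKO library. The part of these markers in the Dgat2 values was not tested.

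Soat1 encodes the enzyme that esterifies cholesterol in the endoplasmic reticulum. Soat1 (ENSMUSG00000026600, chromosome 1, 156424525 to 156474331) measured 218, 230.2 and 329 CPM in cKO libraries 1 to 3, against 171, 407 and 194 CPM in controls 1 to 3. Control 2 was the highest library, and the other controls were the lowest. Between the groups the log2 fold change was 0.01 (SE 0.34, 95% interval -0.77 to 0.79; edgeR adjusted p = 0.998). It was 0.50 without control 2 and -0.22 without control 1, and its sign changed under upper-quartile scaling or library size alone (-0.02 in both).

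Cidea encodes a lipid droplet protein that passes lipid between droplets, found in sebaceous glands and in brown fat. Cidea (ENSMUSG00000024526, chromosome 18, 67343564 to 67367794) measured 92.0, 102 and 105 CPM in cKO libraries 1 to 3, against 79.0, 221 and 138 CPM in controls 1 to 3. Control 1 had the lowest value of all, and controls 2 and 3 had the highest. In cKO over control ears the log2 fold change was -0.55 (SE 0.32, 95% interval -1.29 to 0.19; edgeR adjusted p = 0.981). It was -0.12 without control 2 and -0.85 without control 1 (adjusted p = 0.918 and 0.391 in edgeR). The gene overlaps B430212C06Rik on the other strand, which had at most 78 counts in any library. Ucp1, which defines brown adipocytes, had at most 5 counts in any library.

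Acsbg1 encodes an acyl-CoA synthetase that activates long and very long fatty acids. Acsbg1 (ENSMUSG00000032281, chromosome 9, 54604877 to 54661870) measured 194, 200.3 and 197 CPM in cKO libraries 1 to 3, against 197, 449 and 289 CPM in controls 1 to 3. Control 1 had a value inside the cKO range, and controls 2 and 3 were higher than any cKO library. Its log2 fold change was -0.66 (SE 0.27, 95% interval -1.29 to -0.04; edgeR unadjusted p = 0.0405, adjusted p = 0.907). Without control 2 it was -0.31 (unadjusted p = 0.114 in edgeR) and without control 1 it was -0.91 (unadjusted p = 0.00222, adjusted p = 0.377 in edgeR). DESeq2 gave an adjusted p of 0.600 with all libraries. The authors' deposited table lists a log2 fold change of -0.66 and an adjusted p of 0.664.

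Mc5r encodes a melanocortin receptor whose loss in mice lowers sebaceous lipid output. Mc5r (ENSMUSG00000007480, chromosome 18, 68337603 to 68339711) measured 13.0, 14.6 and 17.8 CPM in cKO libraries 1 to 3, against 9.36, 12.0 and 11.2 CPM in controls 1 to 3. It was the 1 member of 10 whose groups did not overlap, with every cKO library above every control. Of all genes, 10.5% had groups without overlap, 5.73% with cKO libraries higher and 4.81% with them lower. Over all 6 libraries the log2 fold change was 0.48 (SE 0.20, 95% interval 0.03 to 0.94; edgeR unadjusted p = 0.0396, adjusted p = 0.907). By exact permutation of the libraries, two-sided, p was 0.1, which is the lowest value possible with this number of libraries. Between the groups the log2 fold change was positive with any 1 library left out, from 0.35 without cKO 3 to 0.58 without cKO 1. DESeq2 gave an adjusted p of 0.727. The authors' deposited table lists 0.49 and an adjusted p of 0.877. The direction of Mc5r was opposite to that of Acsbg1, and the ratio of Acsbg1 to Mc5r CPM was 14.9, 13.7 and 11.0 in cKO 1 to 3 against 21.1, 37.5 and 26.0 in controls 1 to 3. This pair was chosen after the values were seen and was not tested.

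Mgst1 encodes a membrane-bound glutathione transferase that marks sebocytes. Mgst1 (ENSMUSG00000008540, chromosome 6, 138140316 to 138156755) measured 342, 347 and 408 CPM in cKO libraries 1 to 3, against 311, 467 and 323 CPM in controls 1 to 3. Control 2 was the highest library and the other controls were the lowest. In cKO over control ears the log2 fold change was -0.0038 (SE 0.20, 95% interval -0.46 to 0.45; edgeR adjusted p = 0.998), and 0.21 without control 2. Its sign changed in limma-voom (0.02).

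**Figure D2:**
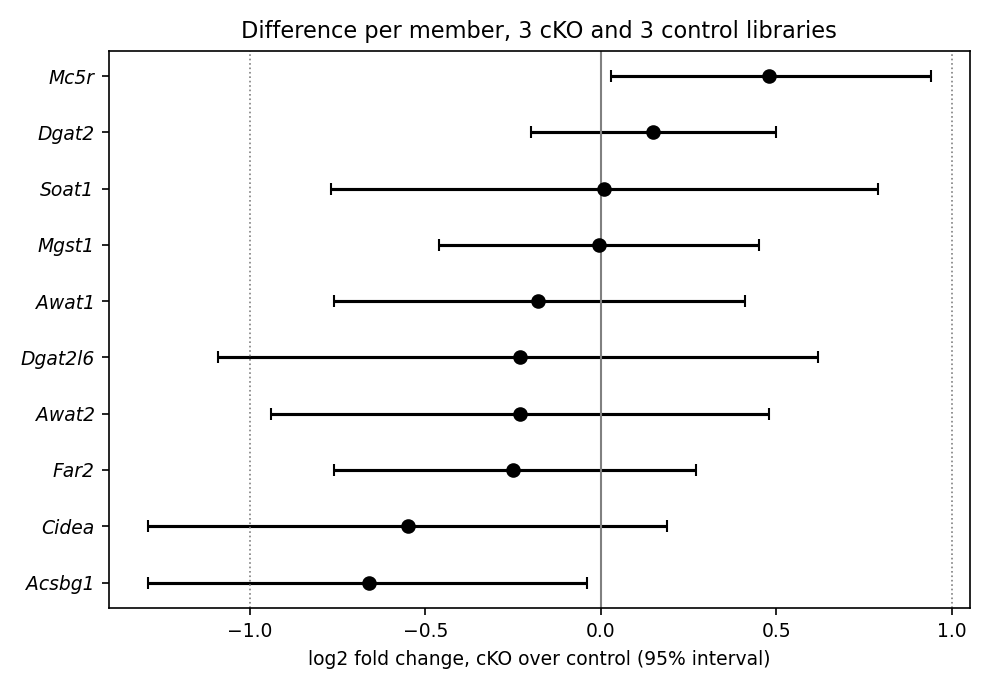
Log2 fold change of each member, cKO over control (horizontal axis), from edgeR with 3 libraries per group; points are estimates, bars are 95% intervals before adjustment for multiple testing, and dotted lines mark a 2-fold difference either way. The intervals of 7 members lie between the dotted lines, and those of Dgat2l6, Cidea and Acsbg1 reach beyond the lower one.

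A difference of 2-fold or more in either direction lay outside the 95% intervals of 7 members. The intervals of Dgat2l6, Cidea and Acsbg1 reached beyond a 2-fold lower level, and no interval reached a 2-fold higher level. These intervals are per gene and cover the spread between the libraries as edgeR estimated it.

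The spread within groups was uneven. In 9 of 10 members the SD of log2 CPM was larger among controls than among cKO libraries, and so it was in 71.0% of all genes. The median SD of log2 CPM was 0.18 in cKO ears and 0.52 in controls for the members, against 0.17 in cKO ears and 0.30 in controls for all genes. Without control 2 the SD was larger among controls in 4 of 10 members (55.4% of all genes), and without control 1 in 9 of 10 (56.0%). The SD of controls then rested on fewer libraries than that of cKO ears. These counts therefore cannot be set directly against those from all libraries. Control 2 held the highest value of 6 members (Awat1, Far2, Soat1, Mgst1, Cidea and Acsbg1) and the lowest of Dgat2l6 and Dgat2. Control 1 held the lowest value of Awat1, Soat1, Mgst1, Cidea and Mc5r. The mean centred log2 CPM of the 10 members was -0.09, -0.12 and 0.06 in cKO 1 to 3 and -0.25, 0.26 and 0.14 in controls 1 to 3.

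Markers of other cell types of the skin also varied between libraries, and among basal keratinocyte markers control 2 was again the highest library. The mean centred log2 CPM of 7 of 7 markers was -0.21, -0.28 and 0.13 in cKO 1 to 3 and -0.53, 0.91 and -0.02 in controls 1 to 3, and their summed level was 5408 to 7212 CPM in cKO ears and 3354 to 11588 CPM in controls. Markers of the upper follicle and sebaceous duct (6 of 6 tested) scored 0.12 to 0.27 in cKO ears and -0.40 to 0.10 in controls. Their summed levels were 1521 to 1736 CPM in cKO ears and 797 to 1510.2 CPM in controls. The log2 fold change was positive in 5 of them and negative in 1, Lrig1 (-0.24, SE 0.12). It was 0.80 for Cst6, 0.71 for Defb6, 0.45 for Plet1, 0.19 for Krt79 (SE 0.40) and 0.07 for Lgr6 (SE 0.15). Hair shaft and inner root sheath genes (12 tested) ranged from 47.3 to 236 CPM summed in cKO ears and from 21.2 to 184 CPM in controls, and skeletal muscle genes (7 of 7) from 2115 to 5673 CPM in cKO ears and from 3029 to 6504 CPM in controls. Among these 4 lists and the adipocyte list edgeR called 0 genes, where it called 0.0173% of all genes. At an unadjusted p under 0.05 in edgeR, 2 upper follicle genes were higher (3.38% of all genes). At that threshold 2 adipocyte genes and 1 basal keratinocyte gene were lower (1.95% of all genes). DESeq2 called 1 gene of these lists, the basal keratin gene Krt15 (lower, adjusted p = 0.0103), where it called 0.525% of all genes. The part of these cell types in the members' values was not tested.

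**Figure D3:**
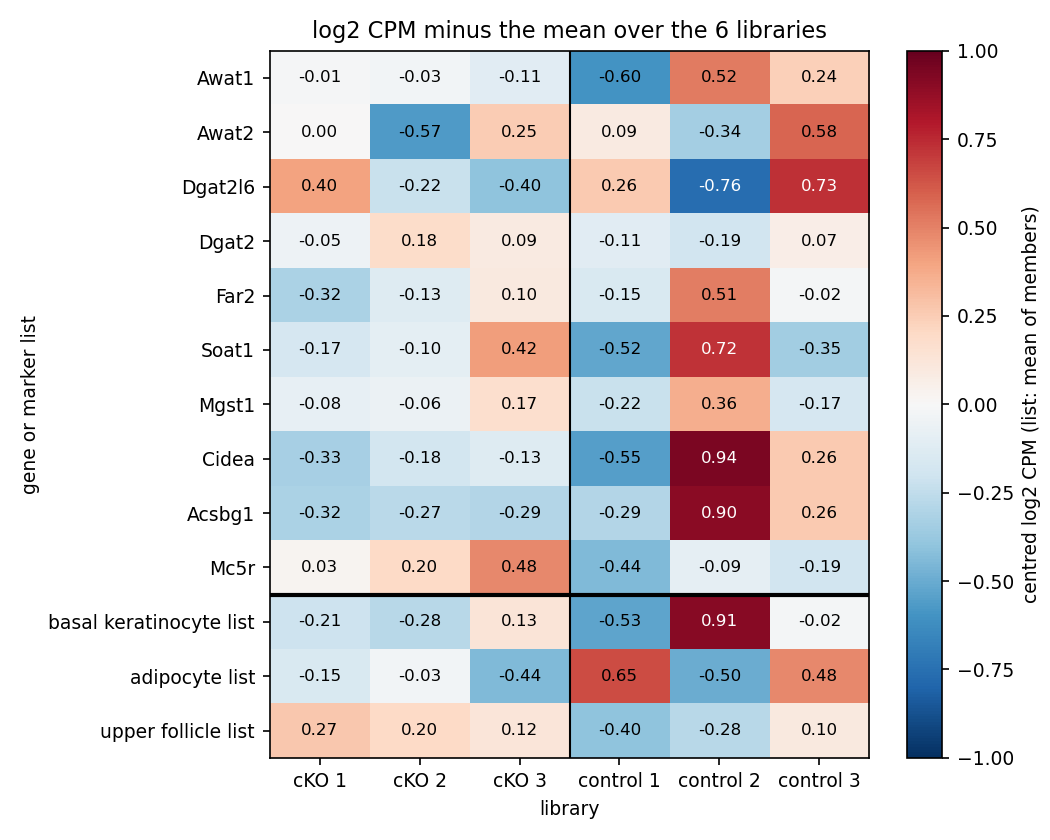
Log2 CPM minus the mean over the 6 libraries for each member (rows above the line) and the mean of the same value over 3 marker lists (rows below it), in cKO (left) and control (right) libraries; red is above and blue below the mean. Control 2 is at 0.94 for Cidea, 0.90 for Acsbg1 and 0.91 for the basal keratinocyte list, and at -0.76 for Dgat2l6.

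Levels were compared between members per length, in the FPKM deposited by the authors. Mgst1 had the highest mean in both groups, 181 ± 18.9 FPKM in cKO ears and 180.4 ± 41.4 FPKM in controls (SD, n = 3 each), and was above every other member in all 6 libraries. Cidea, Dgat2, Far2, Awat1 and Acsbg1 followed, between 52.7 and 187 FPKM, and their ranges over the libraries overlapped from one to the next. Dgat2 was above Cidea in all 3 cKO libraries and below it in control 2. Soat1 came next (17.4 to 40.9 FPKM), below Acsbg1 in all 6 libraries, then Mc5r (8.02 to 15.3 FPKM), which was below Soat1 in all 6. Dgat2l6 (2.64 to 7.52 FPKM) and Awat2 (2.65 to 5.92 FPKM) were lowest, and their ranges overlapped. The mean level of Awat1 was 77.0 ± 2.50 FPKM in cKO ears and 86.8 ± 31.0 FPKM in controls, against 3.77 ± 1.05 FPKM and 4.41 ± 1.43 FPKM for Awat2 (SD, n = 3 each).

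Other genes of the pathway were taken from 4 lists. Of 19 genes that supply fatty alcohols and acyl-CoA, edgeR called 0 (0.0173% of all genes) and DESeq2 called 2 (0.525% of all genes). Both were lower: Elovl5, a fatty acid elongase, and Scd3, a sebaceous stearoyl-CoA desaturase. At an unadjusted p under 0.05 in edgeR, 1 of the 19 was higher (the elongase gene Elovl1, log2 fold change 0.48, SE 0.17) and 3 were lower (Elovl5, Scd3 and the acetyl-CoA carboxylase gene Acacb). At that threshold 3.38% of all genes were higher and 1.95% lower. The median log2 fold change of the list was -0.12. Elovl5 had a log2 fold change of -1.03 (SE 0.13; adjusted p = 0.105 in edgeR and 1.7e-09 in DESeq2) and Scd3 one of -3.66 (SE 0.63; adjusted p = 0.309 in edgeR and 1.2e-07 in DESeq2). Acacb was at -0.64 (SE 0.28), and at -0.26 without control 2.

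Scd3 and Elovl5 were also set against wax synthesis members within each library. The ratio of Scd3 to Awat1 CPM was 0.0262, 0.00407 and 0.0223 in cKO 1 to 3, against 0.210, 0.245 and 0.127 in controls 1 to 3. The ratio of Elovl5 to Far2 CPM was 0.205, 0.190 and 0.178 in cKO 1 to 3, against 0.377, 0.274 and 0.359 in controls 1 to 3. In both ratios the groups did not overlap, but neither did they for Scd3 or Elovl5 alone. Scd3 was at 0.444 to 2.90 CPM in cKO ears and 15.4 to 39.3 CPM in controls. Elovl5 was at 102 to 119 CPM in cKO ears and 211 to 242 CPM in controls. Of all genes, 4.81% had every cKO library below every control. The separation of the ratios is therefore not a further result. The pairs were chosen with the low cKO values of Scd3 and Elovl5 known, so the ratios are given without a test.

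Of 13 tested genes of triglyceride and sterol ester synthesis beside Dgat2 and Soat1, edgeR called 0 (0.0173% of all genes) and DESeq2 0 (0.525%). At an unadjusted p under 0.05 in edgeR 1 was higher (3.38% of all genes) and 0 were lower (1.95% of all genes). That gene was Soat2, the second sterol acyltransferase, with 39, 28 and 27 counts in cKO 1 to 3 and 18, 7 and 19 counts in controls 1 to 3 (log2 fold change 1.14, SE 0.46; edgeR adjusted p = 0.900). Dgat1, the other triglyceride acyltransferase, was at -0.22 (SE 0.20) and at -0.0018 without control 2. The median of the list was -0.05.

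Of 14 tested lipid droplet and lipase genes, edgeR called 0 (0.0173% of all genes) and DESeq2 called 1 (0.525% of all genes). At an unadjusted p under 0.05 in edgeR, 1 was higher (3.38% of all genes) and 0 were lower (1.95% of all genes). That gene was Plin2, which coats lipid droplets in most cells, at 440.1, 435 and 469 CPM in cKO libraries 1 to 3, against 275, 288 and 308 CPM in controls 1 to 3. Every cKO library was above every control, as in 5.73% of all genes. Its log2 fold change was 0.63 (SE 0.14; adjusted p = 0.529 in edgeR and 0.000691 in DESeq2) and kept its sign with any 1 library left out (0.58 to 0.67). The ratio of Plin2 to Cidea CPM was 4.79, 4.26 and 4.45 in cKO 1 to 3 and 3.47, 1.30 and 2.23 in controls 1 to 3, without overlap and, as a pair chosen after the values were seen, without a test. The median of the list was -0.11.

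Of 11 tested regulators of sebocytes and partners of Mc5r, edgeR called 0 (0.0173% of all genes) and DESeq2 called 0 (0.525% of all genes). Of these, 0 had an unadjusted p under 0.05 in edgeR (5.33% of all genes). Mrap, which encodes an accessory protein of melanocortin receptors, measured 6.85, 8.22 and 5.13 CPM in cKO libraries 1 to 3, against 12.2, 4.23 and 12.4 CPM in controls 1 to 3 (log2 fold change -0.51, SE 0.41), so its groups overlapped. Mrap2 had at most 1 count per library and was not tested. Srebf1, a transcription factor of lipid synthesis, was at -0.23 (SE 0.21) and Nr1h3, the oxysterol receptor LXR-alpha, at 0.24 (SE 0.15). The median of the list was -0.09.

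**Figure D4:**
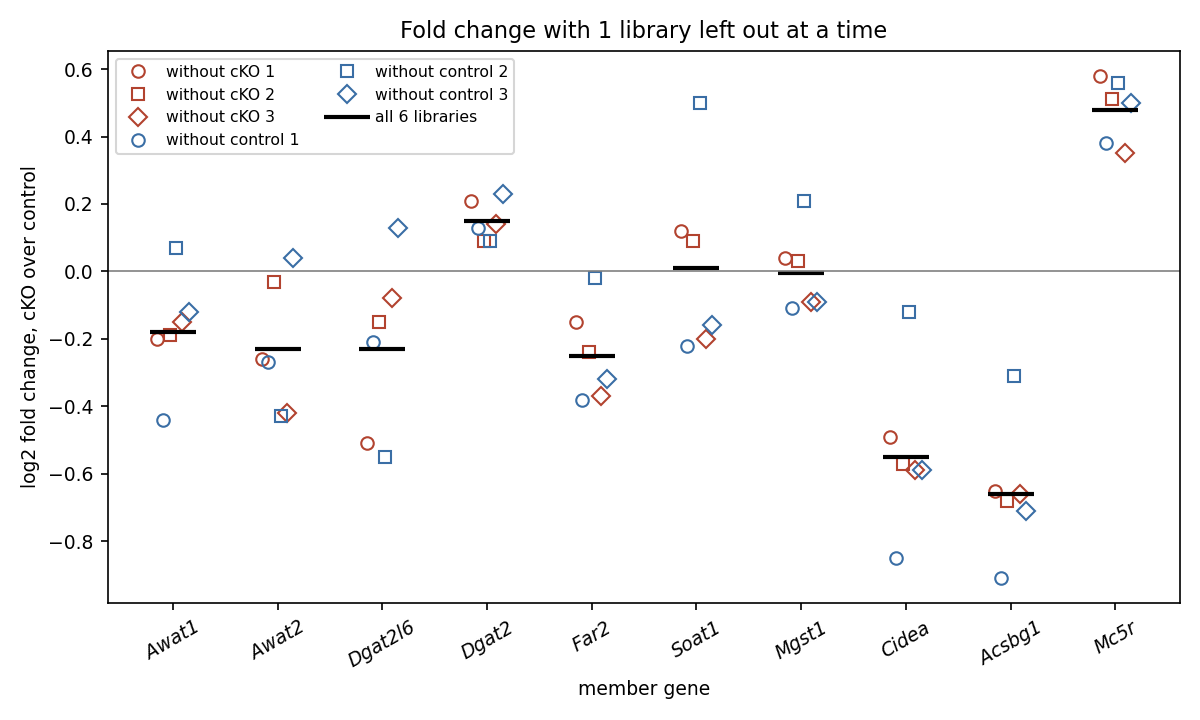
Log2 fold change of each member, cKO over control (vertical axis), with all 6 libraries (black bars) and with 1 library left out at a time (open symbols, red for a cKO and blue for a control library; circles, squares and diamonds for replicates 1 to 3). Mc5r and Dgat2 stay above 0 and Cidea, Acsbg1 and Far2 below it in all 6 cases, and the other members cross it.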

How the data were processed

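Each library has a column of raw gene counts in 1 table that the authors deposited; the values are whole and unscaled. Per the file headers the table also holds FPKM per library, a normalized mean count (a signal value) per group, log2 fold changes, and p-values with adjusted p-values from a test the sources do not name. The submitters' processing notes list HISAT2, HTSeq and mm10. The strand setting is not given, so genes that overlap on opposite strands are uncertain.

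Of 54532 genes, 17318 passed filterByExpr. Counts were scaled by TMM and tested with edgeR 4.0.16 (quasi-likelihood, robust, no covariates; R 4.3.3), two-sided, with Benjamini-Hochberg adjustment over all genes at 0.05. SE is the log2 fold change over the root of F, and 95% intervals use the total degrees of freedom. Centred log2 CPM used a prior count of 2. DESeq2 1.42.0 and limma 3.58.1 were alternatives. The members and lists were chosen with earlier results of these data known, and from each list the text names up to 4 genes with the smallest p. Promoters came from RefSeq (GRCm38.p6), matched by symbol, which gave no window for Dgat2. Windows on chromosome 18, where Cidea and Mc5r lie, were left out, so 7 members were searched. All libraries differed by more than sampling noise.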

Additional observations from a re-analysis of the deposited data

How the results depend on the processing

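Of the 10 members, 0 were called higher and 0 lower under every alternative run. The number of genes called among all tested was 3 in the main test. It was 91 in DESeq2, 26 in limma-voom with quality weights, 25 with no filter beyond 1 count, 0 in limma-voom (unadjusted p under 0.05 for 564 genes higher and 327 lower) and 0 in limma-trend on log2(FPKM + 1) (509 and 310) and on log2(FPKM + 0.1) (506 and 307), for genes with a mean of at least 0.5 FPKM. With the replicate number as a block it was 12. Same-numbered libraries had correlations of 0.22, -0.04 and -0.04 in their deviations from the group means, so the numbers were not taken as pairs. With 1 library left out it ranged from 0 to 4. The median log2 fold change of the members ranged from -0.24 without control 1 to 0.02 without control 2. The number of members without overlap, 1 in the main test, was 2 with upper-quartile scaling (Mc5r and Acsbg1; 10.9% of all genes). With 1 library left out it ranged from 1 without cKO 3 (18.3% of all genes) to 4 without control 1 (28.6% of all genes), and fewer libraries overlap less often by construction.

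Signs changed for members near 0. Soat1 was at -0.02 with upper-quartile scaling and with library size alone, and from -0.22 to 0.50 with 1 library left out. Mgst1 was at 0.02 in limma-voom, with the replicate block and in both FPKM fits, at 0.10 with quality weights, and from -0.11 to 0.21 with 1 library left out. With 1 library left out, Awat1 ranged from -0.44 to 0.07, Awat2 from -0.43 to 0.04 and Dgat2l6 from -0.55 to 0.13. The cause was not tested.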

Other observations

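The purinergic receptor gene P2ry4 lies 11949 bp from Awat1. It had 204, 152 and 110 counts in cKO 1 to 3 and 66, 74 and 120 counts in controls 1 to 3, with overlap between cKO 3 and control 3 (log2 fold change 0.93, SE 0.31; edgeR unadjusted p = 0.0174, adjusted p = 0.849). It was chosen among the neighbours of the members after its values were seen. Other neighbours were also higher at an unadjusted p under 0.05 in edgeR. They were Pdzd11 near Awat1 (log2 fold change 0.35), Serpinh1 near Dgat2 (0.54) and Tubb6 near Cidea (0.60). At that threshold 3.38% of all genes were higher. Awat1 itself had a log2 fold change of -0.18.

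The 5 genes whose log2 CPM over the 6 libraries was most like the mean centred log2 CPM of the members were Klhdc4, Slc7a6os, Haghl, Lrrc56 and Irx2. They were ranked by Pearson's r, which was 0.992 to 0.998 and is given as a description of the 5 highest of many genes, with no test. Without the 2 libraries farthest from the median (control 1 and control 2) it was 0.980 to 0.996. None of the 5 was in the lists of lipid or marker genes.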
